A study of Mus musculus with 2 samples.

Results

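The Hox genes were described in DNase-seq data from the thymus of 2 female B6CASTF1/J mice aged 25 days, a first-generation cross of C57BL/6J with CAST. Both animals formed 1 group, with 1 library each (replicates 1 and 2), and the labels name no treatment and no engineered allele. The enzyme DNase I cuts accessible chromatin more often than packed chromatin. A peak marks such a hypersensitive site, and a footprint is a short stretch protected from cutting, listed separately and not always inside a peak. The libraries are of whole tissue, and the labels give the assembly as mm10, so CAST alleles were read against a C57BL/6J reference. The members were all protein-coding genes whose symbol is Hox, a letter from a to d and a number: 39 of 21938 protein-coding genes, with 11 in HoxA, 10 in HoxB, 9 in HoxC and 9 in HoxD. The rule used symbols and no measured value.

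Hox genes encode homeodomain transcription factors that specify position along the body axis. In the blood system several HoxA genes and Hoxb4 are active in stem and progenitor cells and are turned down as T cells mature, and Hoxa3 is needed in the pharyngeal tissue from which the thymus forms. Most Hox promoters lie in CpG-rich DNA, which in many tissues is open at active genes and carries Polycomb marks at silent Hox genes. CTCF, a zinc finger protein that binds a long motif and helps to bound chromatin domains, is known to bind inside the clusters.

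The longer deposited peak list held 127552 peaks in replicate 1 and 67270 in replicate 2. Read depth is not given in the sources used here. A site without a peak in replicate 2 may thus be closed there or may have gone undetected, and these cannot be told apart. The tissue was bulk: a weak peak in many cells and a strong peak in few cells cannot be told apart. All 8 thymocyte markers (among them Cd3e, Cd8a and Rag1) had a promoter peak in both libraries, against 2 and 1 of 5 thymic epithelial markers, 3 and 2 of 5 mesenchymal, 2 and 2 of 4 endothelial, 2 and 2 of 4 myeloid, and 1 and 0 of 3 B cell markers. Of the thymic epithelial markers, Foxn1, Psmb11 and Krt8 had no promoter peak in either library. Epcam had one in both, at densities of 0.815 and 0.792, and Krt5 one of 0.217 in replicate 1 alone. The part of these cell types in the Hox signal, and that of cells with the haematopoietic progenitor markers given further on, was not tested.

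The sequences shown first are the 6 CTCF-like elements that lay in cluster peaks of both libraries, because they were 6 of the 7 densest cluster sites of replicate 1. A 20-base CTCF weight matrix was used to find them, and the matched bases are in capitals, read on the matched strand of mm10. Elements inside an untranslated region are printed as the match alone.
Hoxa7 exon, chr6:52221805-52221824, minus strand: AATTCCAGGAGATGGCAGTG
Hoxa10 exon, chr6:52240537-52240556, minus strand: GCCGCCACGAGATGGCGCAC
Hoxa11 to Hoxa13 interval, chr6:52257117-52257136, plus strand: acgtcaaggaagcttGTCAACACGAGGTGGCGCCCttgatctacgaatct
Hoxb9 to Hoxb8 interval, chr11:96278944-96278963, plus strand: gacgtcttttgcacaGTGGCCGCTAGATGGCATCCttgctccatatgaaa
Hoxb6 intron, chr11:96294694-96294713, minus strand: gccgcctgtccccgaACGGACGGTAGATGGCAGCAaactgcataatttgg
Hoxd4 region, chr2:74715917-74715936, plus strand: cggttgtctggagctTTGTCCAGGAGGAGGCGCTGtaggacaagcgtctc

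Most Hox promoters had no hypersensitive site in the thymus. A promoter was the 1 kb on either side of the annotated gene start. A peak overlapped it for 14 of 39 Hox genes in replicate 1 (35.9%, 95% Wilson interval 22.7 to 51.6) and for 7 of 39 in replicate 2 (17.9%, 8.98 to 32.7), against 61.7% and 55.1% of all protein-coding genes. In both libraries a peak was listed for 6 Hox genes, against 54.4% of all genes. At 24 Hox genes there was none in either. These intervals cover counting error over genes only, and genes of 1 cluster are neighbours, not replicates.

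The contrast with other genes was wider at CpG-rich promoters, defined as at least 50% GC and an observed to expected CpG ratio of at least 0.6 over the 500 bp on either side. Such a promoter belonged to 24 Hox genes, of which 9 had a peak in replicate 1 and 4 in replicate 2, against 94.4% and 88.8% of all 9738 CpG-rich promoters. In replicate 1 the 95% Wilson interval for CpG-rich Hox promoters reached 57.3%, and in replicate 2 it reached 35.9%. The 15 Hox promoters outside this class had a peak at 5 genes in replicate 1 and 3 in replicate 2, or 33.3% and 20%, where the genes outside this class stood at 35.5% and 28.2%.

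**Figure D1:**
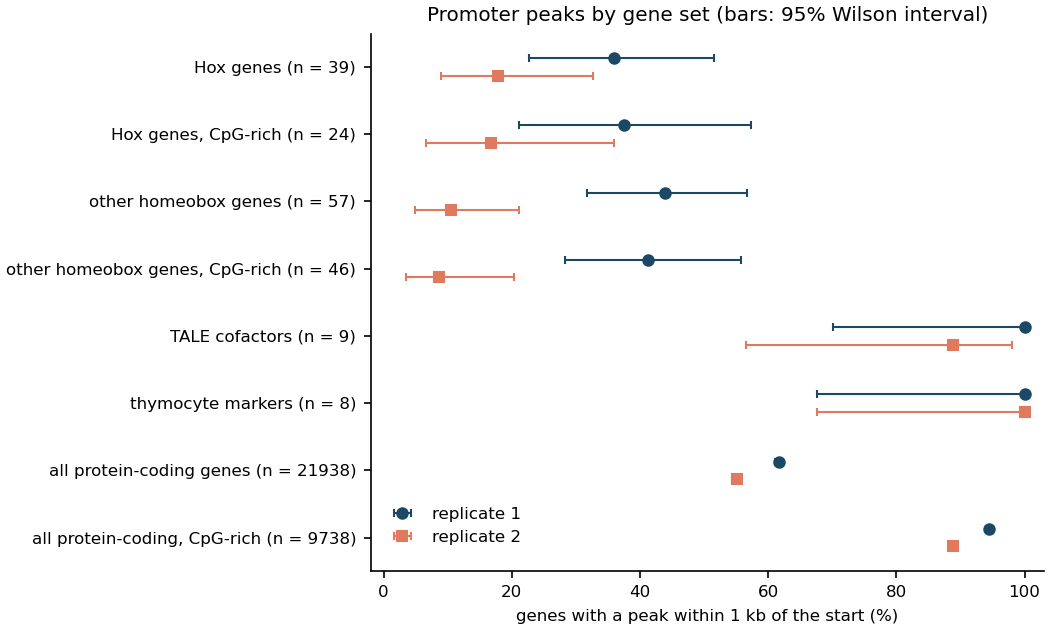
Share of genes with a DNase peak within 1 kb of the gene start (x axis, percent) for 8 gene sets (y axis), with circles for replicate 1, squares for replicate 2 and bars for 95% Wilson intervals over genes. CpG-rich Hox promoters sit at 37.5% and 16.7%, far to the left of all CpG-rich promoters at 94.4% and 88.8%, and the other homeobox genes sit near the Hox genes.

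HoxA held most of the promoters that were open in both mice, among them Hoxa4, Hoxa7, Hoxa10 and Hoxa13, and Hoxb4 was the only member from another cluster. The values are the authors' deposited signal density of the densest peak within 1 kb. Their scaling is not stated, so each is also given as a percentile among the densest promoter peaks of all genes that have one in that library.

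Hoxa4, which patterns the cervical region, had the densest promoter peak of all members in both libraries, at a density of 8.43 in replicate 1 and 3.75 in replicate 2. These ranked at percentiles 47.0 and 38.3, so even the densest Hox promoter lay below the median gene with a promoter peak. The peak was centred at -218 bp in replicate 1 and -208 bp in replicate 2 from the Hoxa4 start. The site merged over the libraries held 5 footprints in each. Its 180 bases in replicate 1 are shown because it is the densest peak of HoxA that touches no exon. They lie in an intron of the longer Hoxa3 gene model, with 73.9% GC and 26 CpG pairs. Capitals mark the SP/KLF letters GGGCGGG or their reverse complement and the E-box CACGTG.
Hoxa4 upstream peak, chr6:52191881-52192060, plus strand: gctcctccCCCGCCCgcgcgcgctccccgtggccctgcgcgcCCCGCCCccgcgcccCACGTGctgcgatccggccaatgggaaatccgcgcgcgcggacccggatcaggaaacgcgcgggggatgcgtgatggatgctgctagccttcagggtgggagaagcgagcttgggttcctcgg

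Hoxa7, a progenitor-expressed HoxA gene, had a density of 5.61 in replicate 1 and 1.18 in replicate 2, at percentiles 37.3 and 16.5. Hoxa10, which is active in blood progenitors and the uterus, had 6.19 and 0.816, at percentiles 39.3 and 11.8. Both peaks hold a CTCF element printed above. The windows of Hoxa7 and Hoxa10 lie at the start of gene models longer than those of Hoxa5 and Hoxa6, so these peaks describe that start alone. Both peaks ranked lower in replicate 2 than in replicate 1, as did those of Hoxa4, Hoxa13 and Hoxb4. Hoxa13, a gene of the distal limb and genital tract, had 2.11 and 0.990, at percentiles 23.0 and 14.1. Hoxb4, known from haematopoietic stem cells, had 1.97 and 1.15, at percentiles 22.2 and 16.3. Hoxa10 thus ranked above Hoxb4 in replicate 1 and below it in replicate 2. Across the members with a peak, the median percentile was 21.6 in replicate 1 and 16.3 in replicate 2; by construction the median over all genes with a promoter peak is 50.

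**Figure D2:**
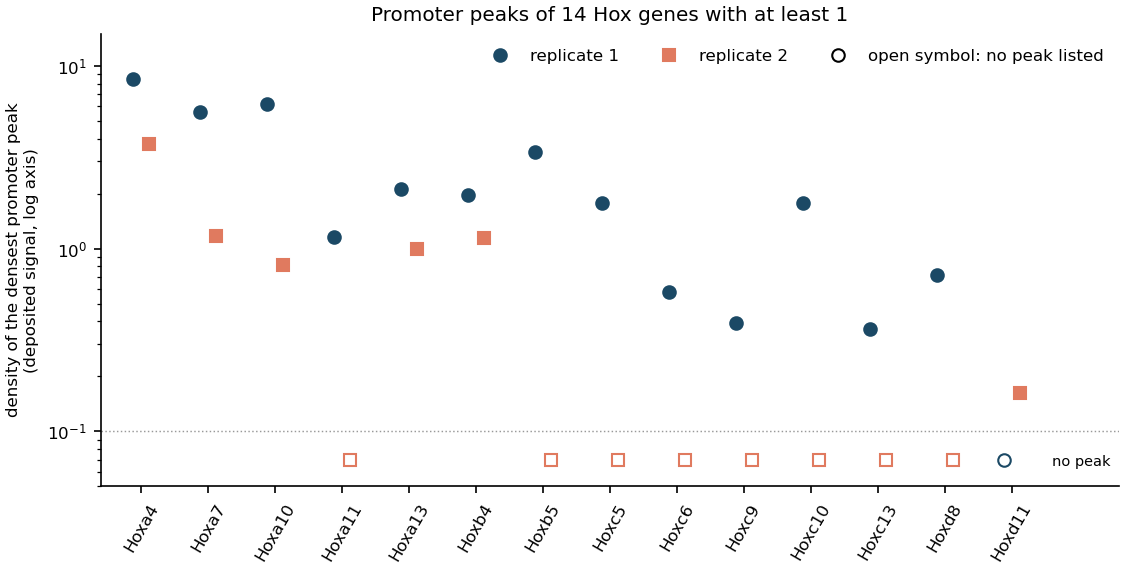
Deposited signal density of the densest promoter peak (y axis, log scale) for 14 Hox genes with a promoter peak in at least 1 library (x axis), with filled circles for replicate 1, filled squares for replicate 2 and open symbols below the dotted line where no peak was listed. Hoxa4 is highest in both libraries at 8.43 and 3.75, and Hoxd11, at 0.162, is the lowest filled symbol.

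At 8 further members only replicate 1 listed a peak that reached into the promoter window. Hoxb5, a marker of long-term haematopoietic stem cells, was the densest of them at 3.37, at percentile 29.0. Hoxc10 and Hoxc5 shared 1 peak of density 1.77, because the annotated start of the long Hoxc5 model lies close to that of Hoxc10, so they do not count as separate observations. Hoxa11, which patterns the forearm with Hoxd11, had 1.16. The densities of Hoxd8 at 0.714, Hoxc6 at 0.577, Hoxc9 at 0.391 and Hoxc13, a hair and nail gene, at 0.365 were lower. The peak at Hoxc6 was centred at 1064 bp and reached into the window with its edge. Replicate 2 listed an overlapping peak of density 0.462 that did not reach into it. At Hoxc6 the libraries thus differed by the window edge, not by the absence of a site. In replicate 2 the deposited false discovery rate file listed a few bases below 0.05 at 4 of these genes without a peak: 37 bases at Hoxa11 with a lowest rate of 0.0258, the same 33 bases at Hoxc10 and Hoxc5 with 0.023, and 15 bases at Hoxc13 with 0.0429. It listed none within 1 kb of Hoxb5, Hoxc6, Hoxc9 or Hoxd8.

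Hoxd11 was the only member with a promoter peak in replicate 2 alone. It had 3 promoter peaks there, with a highest density of 0.162, at percentile 0.0952 among promoter peaks. They belonged to a run of 7 peaks inside the Hoxd11 intron between chr2:74679813-74681764, with densities from 0.132 to 0.162 and percentiles from 1.90 to 2.90 among all peaks of that library. Replicate 1 listed no peak and no base below 0.05 within 1 kb of the Hoxd11 start. Without peaks below the 5th percentile of density, a rule added after the run was seen, 6 members had a promoter peak in replicate 2, while replicate 1 kept 14.

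The 24 members with no promoter peak in either library were Hoxa2, Hoxa3, Hoxa5, Hoxa6 and Hoxa9 in HoxA, Hoxb1, Hoxb2, Hoxb3, Hoxb6, Hoxb7, Hoxb8, Hoxb9 and Hoxb13 in HoxB, Hoxc4, Hoxc8, Hoxc11 and Hoxc12 in HoxC, and Hoxd1, Hoxd3, Hoxd4, Hoxd9, Hoxd10, Hoxd12 and Hoxd13 in HoxD. None of them had a base with a listed false discovery rate within 1 kb in either library. Such a base was listed for 62.7% and 56.3% of all protein-coding genes in replicates 1 and 2, close to the 61.7% and 55.1% with a peak. Its absence is therefore largely the same observation as the absence of a peak. Hoxa9, a central gene of blood progenitors and of leukaemia, and Hoxa3, needed to form the thymus, were thus among the members without a peak. GENCODE starts Hoxa3 at the 5 prime end of a long model, and Hoxd3 and Hoxd4 within a few bases of each other, so the windows of these genes follow those long models. The windows of Hoxa7, Hoxa9 and Hoxa10 likewise follow models longer than those of Hoxa5 and Hoxa6. With a peak allowed at any annotated transcript start, the counts stayed at 14 and 7.

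By cluster, HoxA had 6 and 5 of 11 members with a promoter peak in replicates 1 and 2, HoxB 2 and 1 of 10, HoxC 5 and 0 of 9, and HoxD 1 and 1 of 9. The libraries thus ranked HoxC differently. Along the clusters, paralogue groups 1 to 4, whose members act nearest the head, had 3 and 3 of 12, groups 5 to 8 had 5 and 1 of 11, and groups 9 to 13, which act nearest the tail, had 6 and 3 of 16. The order of the 3 shares differed between the libraries: groups 5 to 8 were highest in replicate 1, at 45.5%, and lowest in replicate 2, at 9.09%. The groups are small and their genes are linked, so whether an end of the clusters differs cannot be told and was not tested.

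Footprints, used by position only, followed the peaks. At least 1 footprint midpoint lay within 1 kb of 13 members in replicate 1 (33.3%) and of 7 in replicate 2 (17.9%), against 59.7% and 54.0% of all genes. Hoxa4 had 7 in each library. Hoxa13 had 5 and 3, Hoxa7 4 and 2, Hoxb4 4 and 1, and Hoxa10 2 and 2. In each of these genes the count in replicate 2 was the same as that in replicate 1 or below it.

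Genes tied to Hox function did not share one pattern. The lists were of TALE cofactors, the homeodomain proteins that bind DNA together with Hox proteins, of regulators upstream of Hox genes, and of other homeobox genes. A promoter peak was listed for 9 and 8 of 9 TALE cofactors. Pknox1 stood at 38.1 and 17.7, Pbx4 at 22.4 and 17.5, and Meis1, a leukaemia partner of Hoxa9, at 0.915 and 0.522. Meis2 had 0.397 in replicate 1 and no peak in replicate 2. Of the 7 upstream regulators 4 and 3 had a peak: Kmt2a, the methyltransferase that maintains Hox expression, stood at 22.5 and 11.7 and its partner Men1 at 12.2 and 9.02, whereas Cdx1, Cdx2 and Rarg had none. A larger share of cofactor than of Hox promoters thus had a peak in both libraries, and no test compared the lists.

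Homeobox genes outside the clusters were more like the Hox genes than the cofactors were. Of 57 such genes, 25 had a promoter peak in replicate 1 and 6 in replicate 2, and of the 46 with a CpG-rich promoter, 19 and 4 did. The even-skipped gene Evx1 beside HoxA had 0.354 in replicate 1 and none in replicate 2, and Evx2 beside HoxD had none. CpG-rich promoters without a peak were therefore seen outside the 4 clusters too. Among haematopoietic progenitor markers, 4 and 2 of 5 had a promoter peak: Kit at 11.0 and 4.37 and Flt3 at 0.397 and 0.330 in both, Gata2 at 0.444 and Cd34 at 0.270 in replicate 1 alone, and Mecom in neither.

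Of the nearest protein-coding genes on either side of the clusters, 4 had a promoter peak in both libraries. Skap2, an adaptor gene beside HoxA, had densities of 34.2 and 16.2, above every Hox promoter. Skap1, an adaptor gene of T cells beside HoxB, had 4.66 and 2.78. Calcoco1 beside HoxC had 13.4 and 6.35, and Mtx2 beside HoxD had 3.08 and 1.91. Beside Evx1 and Evx2, given above, the other two were Ttll6, at 0.894 in replicate 1 alone, and Smug1, with none. Of the noncoding genes, 5 miRNA genes and 9 genes named after Hox or with names in Hota or Hott were counted, and not every noncoding gene of the clusters. Within 1 kb of their starts, only Mir196b of the miRNA genes had a peak (0.778, replicate 1 alone), and of the 9 others Hoxd3os1 had 5.82 and 0.948 and Hoxa11os 1.16 in replicate 1 alone. The Hoxd3os1 peak is the CTCF site of the Hoxd4 region, and the Hoxa11os peak is the Hoxa11 promoter peak, so neither is a further observation. Hotair and Hottip had none in either library within 1 kb of their starts.

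Over their whole length the 4 clusters together held more peaks per 100 kb than the genome. HoxC held fewer in replicate 2 and was near the genome in replicate 1. The Hoxc13 promoter peak of replicate 1 lies just outside the HoxC span and is not counted in it. Replicate 1 listed 14 peaks in HoxA, 14 in HoxB, 5 in HoxC and 10 in HoxD, and replicate 2 listed 8, 4, 1 and 9. The means were 11.0 ± 4.24, 9.0 ± 7.07, 3.0 ± 2.83 and 9.50 ± 0.707 (SD, n = 2), so HoxC was lowest in both libraries. Per 100 kb the clusters together held 8.74 and 4.47 peaks, against 4.68 and 2.47 over the genome and 7.0 and 2.38 over the 100 kb on each side of the clusters. The genome rates divide by the full length of all chromosomes, with assembly gaps and Y included, which lowers them slightly. HoxA stood at 13.3 and 7.60, HoxB at 8.05 and 2.30, HoxC at 4.32 and 0.864 and HoxD at 10.3 and 9.29. HoxB was thus above the genome in replicate 1 and below it in replicate 2. Without the Hoxd11 run replicate 2 held 15 cluster peaks and 3.05 per 100 kb, with 2 in HoxD. Peaks covered 1.51% and 0.745% of the clusters, against 0.911% and 0.485% of the genome. The clusters carried 134 footprints of 363775 in replicate 1 and 45 of 203939 in replicate 2. Per 100 kb these were 27.2 and 9.15, against 13.3 and 7.48 over the genome.

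**Figure D3:**
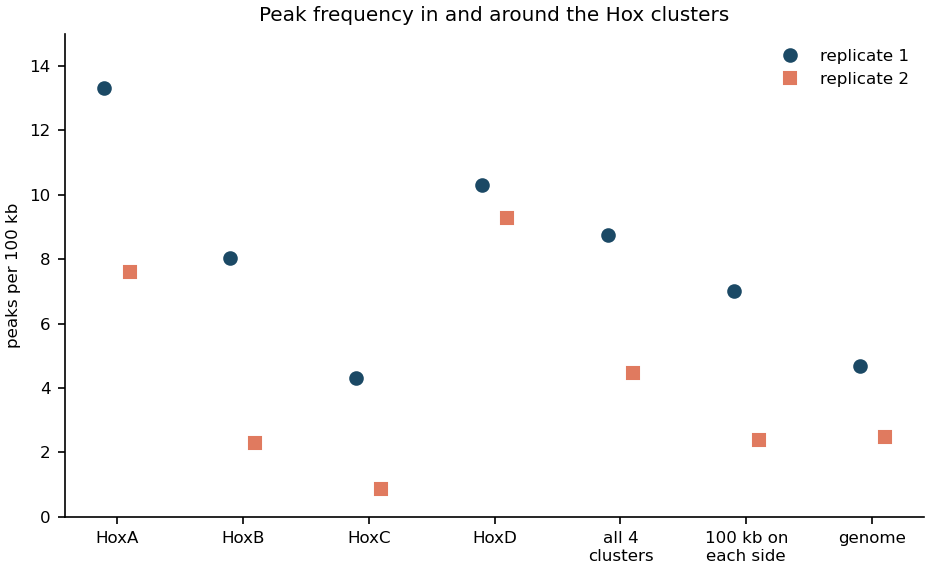
Peaks per 100 kb (y axis) in each Hox cluster, in all 4 together, in the 100 kb on each side and over the genome (x axis), with circles for replicate 1 and squares for replicate 2. HoxC is the lowest cluster at 4.32 and 0.864, and the HoxD value of replicate 2, at 9.29, includes the 7 faint Hoxd11 peaks.

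The clusters hold much CpG-rich DNA, and that DNA was mostly without peaks. Of 59 CpG-rich tiles of 1 kb in the clusters, 16 in replicate 1 (27.1%) and 8 in replicate 2 (13.6%) held a peak, against 75.7% and 66.7% of CpG-rich tiles over the genome. Of the 428 other tiles, 6.07% and 2.80% held one, against 4.16% and 2.11%. Without the faint Hoxd11 run, 9 of the 428 other tiles held a peak in replicate 2, or 2.10%, which is close to the genome. The genome share keeps its own faintest peaks, so these 2 values were not filtered alike. The shortfall thus lay in CpG-rich DNA. In the remaining cluster DNA the share was above that of the genome in replicate 1. In replicate 2 it was above with that run, and the order without the run cannot be told.

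Merged over the libraries, the cluster peaks formed 49 sites: 15 in both, 27 in replicate 1 alone and 7 in replicate 2 alone, the last being the Hoxd11 run. Of the 43 peaks of replicate 1, 34.9% overlapped a peak of replicate 2, against 46.9% of all its peaks. Of the 22 peaks of replicate 2, 68.2% overlapped one of replicate 1, against 88.8%, and every peak outside the Hoxd11 run had a partner. Of the 15 shared sites, 6 had their centre within 1 kb of a Hox gene start. Outside these windows were a site between Hoxa6 and Hoxa7, inside the long Hoxa3 model (chr6:52211641-52211860, density 4.53 and 1.16), and an exonic site within Hoxa7 (chr6:52217481-52217660, 4.83 and 2.44). The latter touches an untranslated region of the Hoxa7 model and was denser in replicate 2 than the peak in the Hoxa7 promoter window, at 1.18. HoxB had one between Hoxb5 and Hoxb4 (chr11:96311641-96311820, 2.74 and 0.654). HoxC had its single shared site in an intron of Hoxc6 (chr15:102999221-102999425, 0.577 and 0.462). Its replicate 1 peak is the one counted above at the edge of the Hoxc6 promoter window. HoxD had one in an exon of the noncoding gene Haglr (chr2:74749421-74749720, 1.23 and 1.13). The remaining 4 carried a CTCF element.

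**Figure D4:**
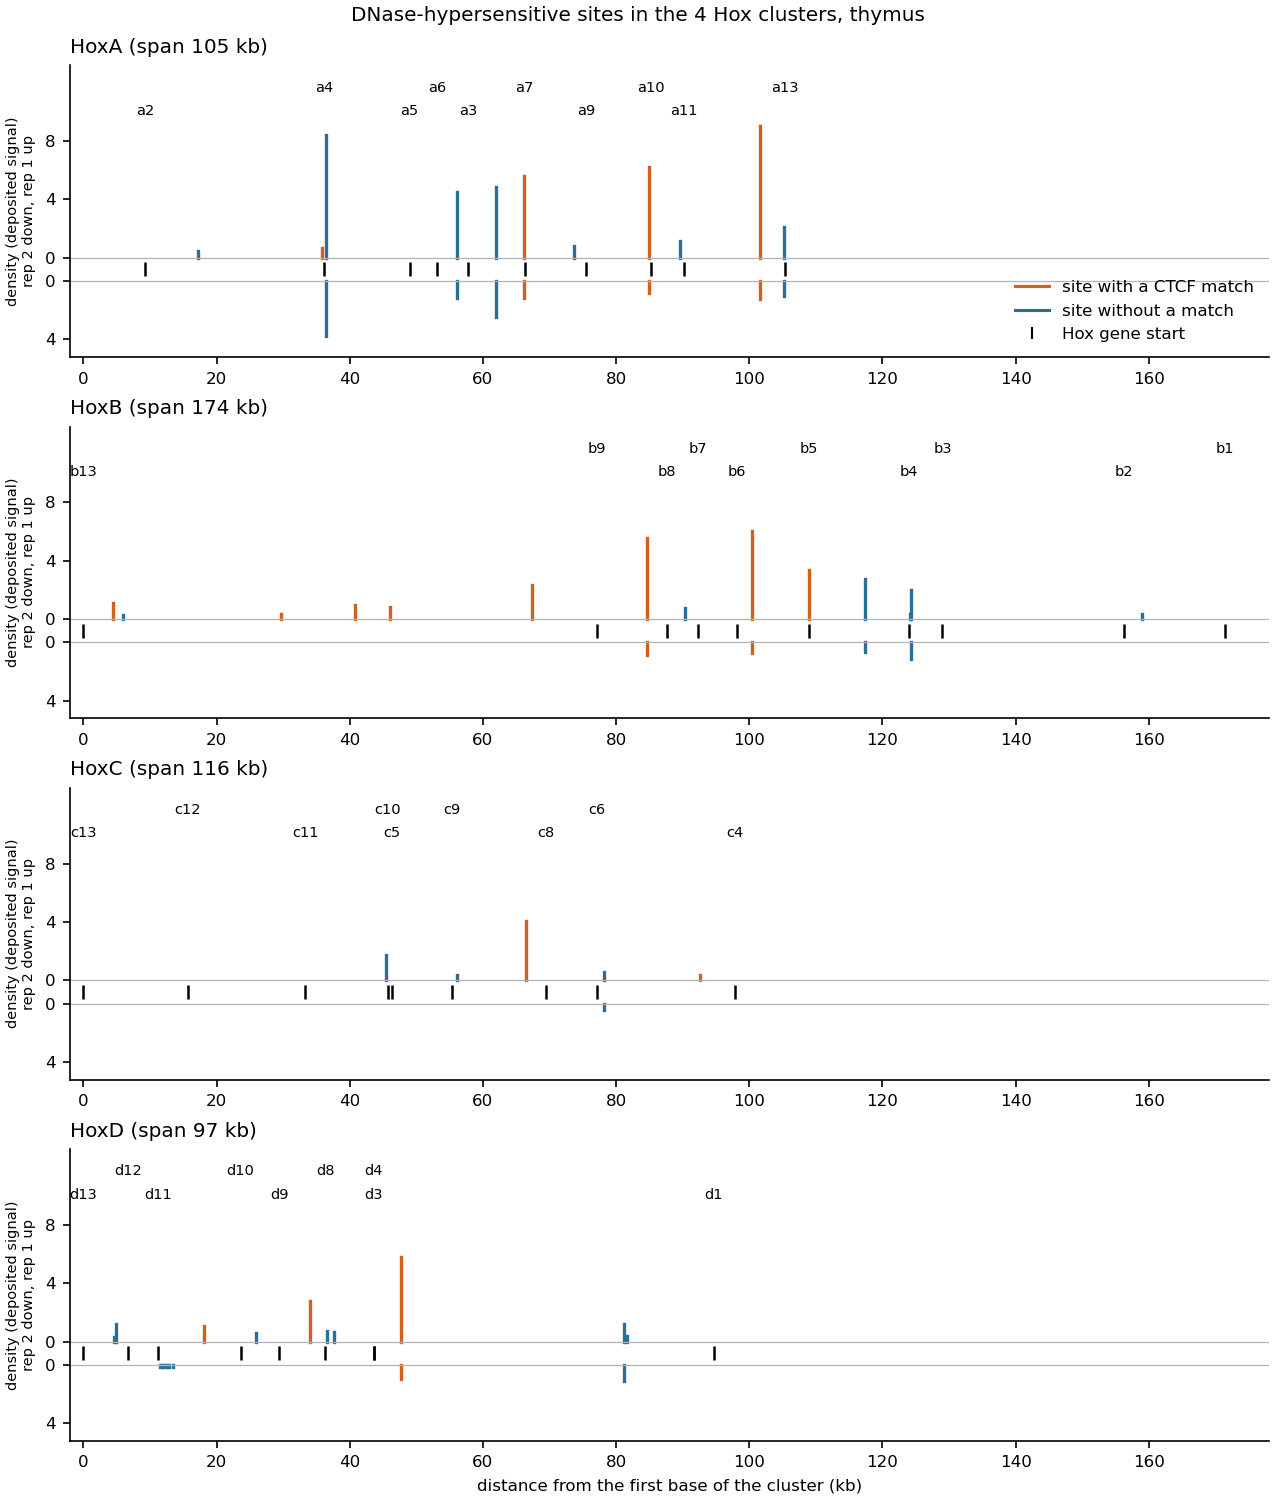
Peak density (y axis, deposited signal, replicate 1 upward and replicate 2 downward) against distance from the first base of each cluster (x axis, kb), with black ticks at Hox gene starts and orange lines at sites that hold a CTCF matrix match. The densest line is the orange site between Hoxa11 and Hoxa13 at 9.06 and 1.24, and the Hoxc13 peak lies upstream of the HoxC span and is not drawn.

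Whether CTCF elements were more frequent in the cluster peaks than in all peaks depended on how a match was defined. The short CTCF consensus matched exactly in 0 of 43 and 0 of 22 cluster peaks, which allows a share of up to 6.98% and 13.6%, against 5.43% and 4.24% of all peaks, so the shares were not distinguishable. With at most 1 mismatch it matched in 6 and 3 peaks, or 14% and 13.6%, against 20.1% and 13.3% of all peaks, so this rule showed no excess in the clusters. A matrix learned from peaks outside the Hox clusters, added after the consensus result was seen, matched at a score of at least 12 bits in 17 of 43 peaks (39.5%, 95% Wilson interval 26.4 to 54.4) and in 6 of 22 (27.3%, 13.2 to 48.2), against 22.0% and 14.6% of all peaks. The share of all peaks lay below the interval of replicate 1 and inside that of replicate 2. These intervals cover counting error over peaks only and are not a test. The matrix was learned from the densest peaks of replicate 1, so it is not independent of that library. By cluster, the matches of replicate 1 were 4 in HoxA, 8 in HoxB, 2 in HoxC and 3 in HoxD.

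The densest cluster peak of replicate 1 was a CTCF site in the interval between Hoxa11 and Hoxa13 (chr6:52257041-52257220), in an exon of the gene 9530018H14Rik, with a density of 9.06 there and 1.24 in replicate 2. Between Hoxb9 and Hoxb8 the values were 5.57 and 0.852 (chr11:96278901-96279060), in the Hoxb6 intron 6.02 and 0.744 (chr11:96294621-96294820), and in the Hoxd4 region, in an exon of the antisense gene Hoxd3os1, 5.82 and 0.948 (chr2:74715861-74716040). With the Hoxa7 and Hoxa10 promoter peaks these are the 6 shared CTCF sites. In replicate 1 they ranked between percentiles 87.9 and 92.5 of all peaks and in replicate 2 between 41.3 and 59.3, with no overlap. The 9 shared sites without a match had a median percentile of 77.9 in replicate 1 and 57.1 in replicate 2.

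This difference in rank between the libraries was not particular to the Hox clusters. The percentiles are ranks within lists of unlike length, 127552 and 67270 peaks, and the matrix was learned from the densest peaks of replicate 1. They are thus not a measure of a difference between the mice. Over the whole genome, peaks with a match and a partner had a median percentile of 85.5 in replicate 1 and 47.0 in replicate 2, and those with a partner and no match 70.5 and 57.3. The same order was thus seen in the clusters and over the genome, and its cause was not tested. All 11 cluster sites with a match that lacked a partner were from replicate 1.

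**Figure D5:**
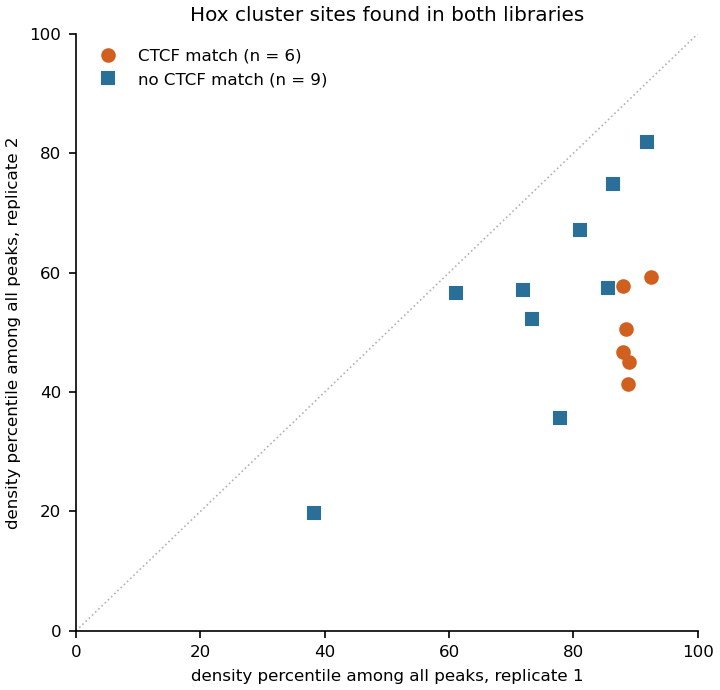
Density percentile of the 15 Hox cluster sites found in both libraries, in replicate 1 (x axis) and replicate 2 (y axis), with circles for the 6 sites with a CTCF match, squares for the 9 without and a dotted line of equal percentiles. The circles form a narrow column between 87.9 and 92.5 on the x axis and between 41.3 and 59.3 on the y axis.

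A footprint overlapped the CTCF match in 16 of 17 peaks in replicate 1 and 6 of 6 in replicate 2, against 90.4% of such peaks over the genome in each library. At the Hoxa11 to Hoxa13 site the footprints were chr6:52257116-52257149 in replicate 1 and chr6:52257118-52257149 in replicate 2, so they began within a few bases of the match and ended at the same base. At the Hoxb9 to Hoxb8 site they were chr11:96278943-96278977 and chr11:96278944-96278965. A footprint is a protected stretch, and binding by CTCF was not measured.

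Among the CTCF sites of replicate 1 alone, the densest lay between Hoxc9 and Hoxc8, between Hoxd9 and Hoxd8 and at the Hoxb5 promoter. The HoxC site, in an intron of the long Hoxc5 model, had a density of 4.05, the Hoxb5 site 3.37 and the intergenic HoxD site 2.79. They are printed as the densest matches of replicate 1 without a partner.
Hoxc9 to Hoxc8 interval, chr15:102987589-102987608, plus strand: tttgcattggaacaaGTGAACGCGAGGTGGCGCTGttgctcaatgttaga
Hoxd9 to Hoxd8 interval, chr2:74702391-74702410, plus strand: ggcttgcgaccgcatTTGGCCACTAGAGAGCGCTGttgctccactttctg
Hoxb5 promoter, chr11:96303241-96303260, plus strand: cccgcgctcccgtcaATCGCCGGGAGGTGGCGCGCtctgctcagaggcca
The long gap between Hoxb13 and Hoxb9 held 5 more, all from replicate 1 alone, with densities of 1.08, 0.370, 0.994, 0.836 and 2.35 in map order. All 5 matches were on the minus strand. The 3 matches in HoxD and the 2 in HoxC were on the plus strand, and over the 17 sites 9 were on the plus strand and 8 on the minus strand.

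Other motifs were searched as exact letters on both strands. The E-box CACGTG was in 7 of 43 and 5 of 22 cluster peaks, against 5.11% and 6.23% of all peaks. SP/KLF letters were in 8 and 3, against 11.5% and 16.4%, and the MEIS letters TGACAG in 5 and 4, against 15.2% and 15.8%. The E-box, which was not among the motifs first planned, had a higher share in the cluster peaks than in all peaks in both libraries. Of the 22 cluster peaks of replicate 2, 15 overlap one of replicate 1, so the libraries are not separate sets of sequence. No test was made of this excess. The MEIS and SP/KLF shares did not differ in 1 direction from those of all peaks. GATA letters (AGATAA) were in 2 and 1 cluster peaks, against 5.87% and 5.17% of all peaks, and the CRE letters TGACGTCA in 1 and 0, against 0.710% and 1.10%. The HOX core TAATTA and the PBX-HOX letters TGATTNAT, which Hox proteins and their partners bind, were in no cluster peak of either library, against at most 1.49% and 1.10% of all peaks. The ETS letters CCGGAAGT, the YY1 letters AAGATGGC, the NFY letters CCAATCA, RUNX (TGTGGTT then A or T), TCF/LEF (CTTTGA then A or T, then C or G), NRF1 and REST were in no cluster peak either, and none was in over 4.52% of all peaks. The YY1 letters can overlap the end of a CTCF element. A match is a description of letters and not a bound site, and no match says only that the letters are not in the peaks.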

How the data were processed

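Per the labels, the samples were thymus of 2 female mice, 1 library each, in 1 group; they are numbered as in the labels, which give the assembly as mm10. The authors deposited, per library, 2 peak lists with a signal density per peak, of which the longer was used, footprints with no usable score, and runs of bases with an FDR (q-value) below 0.05. For the aligner, callers, versions, depth and scaling of the density, nothing is given in the sources used here, so densities were ranked within a library only. Genes are those of GENCODE M21 on GRCm38. A peak belonged to a promoter if at least 1 bp of it lay within 1 kb of the gene start. The 20-base CTCF matrix was learned in 5 rounds from the 10000 densest replicate 1 peaks outside the Hox clusters, starting from 561 exact consensus matches, and was scored on both strands. Because it was learned from replicate 1, it is not independent of that library. Sequences were read from the GRCm38 genome. No test was made, since there is 1 group and the 2 animals are its only replicates; SDs are over these 2 libraries. The members and lists were chosen with earlier results of these data known. Named genes were all members, the nearest gene on each side of each cluster, and genes of the lists. Alternatives covered the peak list, density, window, gene start, overlap, motif rule and each library left out. Analyses used Python 3.11.15, numpy 2.4.6, scipy 1.17.1, pandas 2.3.3, pysam 0.24.0 and matplotlib 3.10.9, and overlap counts were tested on simulated data against bedtools 2.31.1. Values of 1 Hox gene are not reported here; it is in the counts, and it and its sites are not drawn by name or position.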

Additional observations from a re-analysis of the deposited data

How the results depend on the processing

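Of 72 alternative values, 51 stayed within the spread of the libraries or within 1.5 times the reported count, and 21 moved. The number of Hox genes with a promoter peak stayed between 10 and 18 in replicate 1, between 5 and 9 in replicate 2 and between 5 and 8 in both, and the widest window added Hoxa3, Hoxa9, Hoxb7 and Hoxd12. These were 25.6% to 46.2%, 12.8% to 23.1% and 12.8% to 20.5% of the Hox genes. Under the same settings the shares of all protein-coding genes were 53.1% to 66.5%, 47.7% to 59.7% and 47.7% to 59.0%. The Hox share was the lower one in every setting. The count in both libraries was 7 without replicate 1 and 14 without replicate 2. With the shorter deposited list, HoxC held 3 and 0 peaks, HoxD held 2 in replicate 2, and 100% of the replicate 2 cluster peaks had a partner. With the denser 50% of peaks, replicate 1 had 9 peaks in HoxA, 9 in HoxB, 2 in HoxC and 5 in HoxD, and replicate 2 had 1 in HoxB, 0 in HoxC and 2 in HoxD. Without the faintest 5% of peaks, HoxD held 2 in replicate 2. The mean over libraries became 4 and 14 in HoxB and 1 and 5 in HoxC when one library was left out. The share with a CTCF match rose from 0 to 14% and 13.6% with 1 mismatch, where all peaks stood at 20.1% and 13.3%, and to 39.5% and 27.3% with the matrix, where all peaks stood at 22.0% and 14.6%. No paired analysis was possible because there is 1 group. Depth is unknown, so a closed site and an undetected one cannot be told apart where replicate 2 lists no peak.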
